A study of Bos taurus with 14 samples.

Results

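The MCM genes encode the subunits of the helicase that unwinds DNA ahead of the replication fork. They were examined in bovine embryonic stem cells (bESC), in blastocysts and in skin fibroblasts. The members were taken by symbol from the first column of the deposited files and are MCM2, MCM3, MCM4, MCM5, MCM6, MCM7 and MCM10. All 7 had a row among the 23159 features used from the blastocyst, fibroblast and early bESC libraries. A row under 6 of these names was found among the 24616 features of the later bESC libraries, where MCM4 was not analysed here.

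Total RNA of 14 cattle samples was sequenced. The bESC lines A and B, named CTFR-bESC in the study, were derived from blastocysts and grown on mouse embryonic fibroblast feeders. Their basal medium had no growth factors of its own. FGF2 (human, 20 ng/mL) and the WNT pathway inhibitor IWR1 (2.5 µM) were added. Line A was sequenced at passages (P) 10, 13, 23, 35 and 45 and line B at P10, P12, P24, P35 and P46, with 1 library each. The controls, which the study's design names as such, were 2 pools of 10 whole in vivo blastocysts and 2 skin fibroblast lines, each labelled A and B. A whole blastocyst holds trophectoderm and hypoblast as well as the inner cells from which stem cells are derived. Libraries of 1 bESC line are serial passages of 1 culture, so p-values among them measure the spread between passages. The other groups have 2 libraries each, whose spread may be partly technical.

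MCM2 to MCM7 each provide a subunit of a ring that is loaded around DNA at replication origins before S phase by the origin recognition complex (ORC), CDC6 and CDT1. The loaded ring is inactive until kinases, CDC45 and the GINS complex turn it into the moving helicase. MCM10 is not part of the ring and acts at the activation step, when the strands first come apart. Pluripotent stem cells spend much of their cycle in S phase and are known for high expression of the ring genes, whereas cultured fibroblasts spend longer in G1.

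The deposited values are RPKM, read counts per gene length and per library size, with no read counts, so depth in reads is unknown. Low values gave a relative depth of 1.0 to 1.56 among the 6 control and P10 libraries and of 0.71 to 1.03 among the 8 later ones. The P10 files and the later files are separate sets with different feature lists, so no test was run between them. In the blastocyst pools the 2 most abundant features took 65.8% and 64.0% of all RPKM, against 2.1% to 3.4% elsewhere, which lowers the RPKM of every other blastocyst gene. Changes are therefore also given relative to the median gene and under 3 other scalings of the libraries. The tissue labels were compared with marker genes. The summed RPKM of 5 pluripotency genes was 115 and 96.2 in blastocysts, 0.499 and 2.14 in fibroblasts and 680.0 and 538.6 in P10 bESC. The sum of 9 fibroblast genes was 6092 and 6473 in the fibroblast lines, 2.70 and 3.17 in blastocysts and 144 and 268 in P10 bESC. All 9 reached 1 RPKM in both fibroblast lines. The sum of 6 trophectoderm genes was 957 and 665 in blastocysts, where all 6 reached 1 RPKM, 15.6 and 11.8 in fibroblasts, 157 and 188 in P10 bESC and 235 to 788 in later bESC. In every bESC library 2 of the 6, the keratin genes KRT8 and KRT18, reached 1 RPKM, and CDX2, a defining transcription factor of that lineage, was listed at 0.

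In RPKM as deposited, all 6 ring genes were more abundant in P10 bESC than in either control. MCM2, which also carries a histone-binding tail, had 4.28 and 2.86 RPKM in blastocyst pools A and B, 11.5 and 12.4 RPKM in fibroblast lines A and B, and 107 and 72.7 RPKM in bESC lines A and B at P10. MCM5, which sits beside MCM2 at the gate of the ring, had 6.22 and 4.70 RPKM in blastocysts, 12.8 and 12.4 in fibroblasts and 106.5 and 70.1 in P10 bESC. MCM3, the neighbour of MCM5 in the ring, had 13.95 and 10.1 RPKM in blastocysts, 15.1 and 14.97 in fibroblasts and 98.4 and 55.9 in P10 bESC. For these 3 genes the lower P10 library was 3.71 to 5.87 times the highest control library.

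MCM4, MCM6 and MCM7 form the part of the ring that has helicase activity on its own in the test tube. MCM4 had 8.16 and 8.76 RPKM in blastocysts, 22.4 and 26.9 in fibroblasts and 112 and 65.9 in P10 bESC. MCM6 had 16.6 and 22.6 RPKM in blastocysts, 24.0 and 32.5 in fibroblasts and 120.2 and 81.0 in P10 bESC. MCM7 had 20.6 and 13.2 RPKM in blastocysts, 38.4 and 35.7 in fibroblasts and 136 and 72.2 in P10 bESC. The P10 libraries again lay above all 4 controls, by 1.88 times for MCM7 to 2.50 times for MCM6 when the lower P10 library is set against the highest control.

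MCM10 followed another order. It had 22.4 and 30.2 RPKM in blastocysts, 6.51 and 8.71 in fibroblasts and 30.0 and 16.8 in P10 bESC. The blastocyst and bESC values overlapped, and both fibroblast lines lay below them. The plot of levels by library shows the 6 ring genes climbing from the controls to bESC, with MCM10 to the right.

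**Figure D1:**
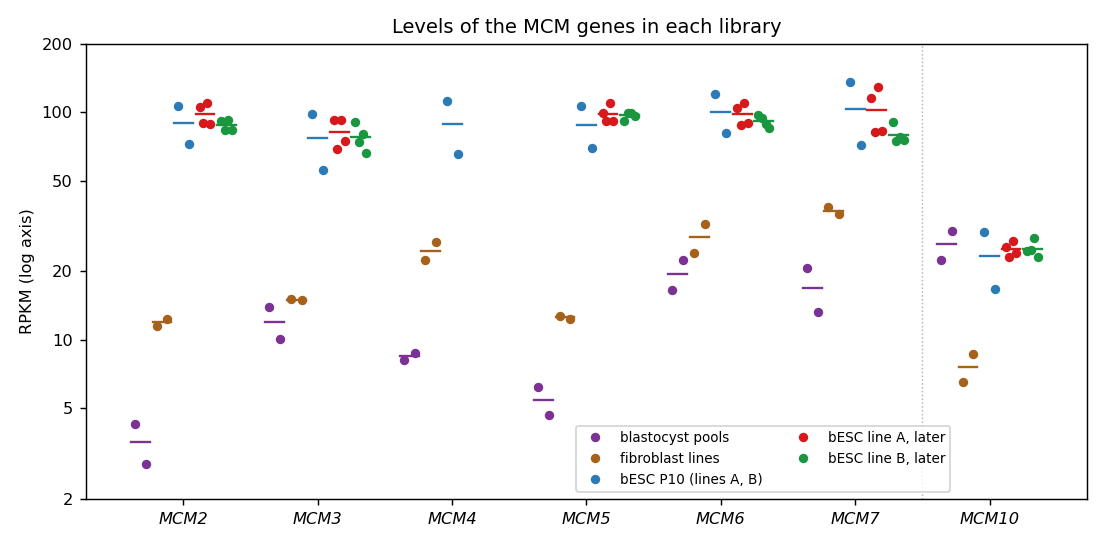
RPKM (log axis) of each MCM gene in every library, with a point for a library and a line for the group mean. For MCM2 to MCM7 both P10 bESC points lie above all 4 blastocyst and fibroblast points, and for MCM10 the blastocyst points (22.4 and 30.2 RPKM) overlap the P10 bESC points (30.0 and 16.8 RPKM).

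In P10 bESC the ring genes stood at 77.2 ± 30.1 RPKM (MCM3) to 104 ± 44.9 RPKM (MCM7) (SD, n = 2). Much of that spread is shared, since line A exceeded line B in every gene. Within a library MCM3 was the lowest ring gene in both P10 libraries, and MCM6 exceeded MCM3 in all 10 bESC libraries. In fibroblasts MCM7 was the most abundant, at 37.0 ± 1.96 RPKM, and MCM2 the least, at 11.9 ± 0.636 RPKM (SD, n = 2). MCM2 and MCM5 (12.6 ± 0.259 RPKM) were close neighbours at the low end of that order. In blastocysts MCM6 (19.6 ± 4.22 RPKM) and MCM7 (16.9 ± 5.25 RPKM) overlapped at the top of the ring genes and MCM2 (3.57 ± 1.01 RPKM) and MCM5 (5.46 ± 1.08 RPKM) stood at the bottom (SD, n = 2). RPKM is per gene length, so these orders compare genes, as far as the annotated lengths are right.

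The proportions of the ring genes within a library are not changed by a scaling factor for the whole library, though quantile normalization can change them. The highest ring gene exceeded the lowest 4.82 and 7.90 times in blastocysts, 3.34 and 2.88 times in fibroblasts, and 1.38 and 1.45 times in P10 bESC. The 6 transcripts were thus nearest to equal abundance in bESC, and the 3 cell types did not overlap. MCM2 was the lowest ring gene in all 4 control libraries, with 6.13% and 4.59% of the summed ring RPKM in blastocysts and 9.25% and 9.19% in fibroblasts, against 15.7% and 17.4% in P10 bESC. The top place went to MCM7 in both fibroblast lines, in blastocyst pool A and in line A at P10, and to MCM6 in blastocyst pool B and in line B at P10. In the 8 later bESC libraries the ratio of highest to lowest, over the 5 genes with a row there, was 1.08 to 1.46.

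MCM10 relative to the ring separated blastocysts from the cultured cells. Its RPKM was 182% and 283% of the mean of MCM2, MCM3, MCM5, MCM6 and MCM7 in blastocysts, 32.0% and 40.4% in fibroblasts and 26.4% and 23.8% in P10 bESC. The later libraries held it at 24.6% to 31.8%. On the log2 scale, MCM10 over the geometric mean of MCM2 to MCM7 was 1.16 and 1.85 in blastocysts, -1.54 and -1.23 in fibroblasts and -1.91 and -2.04 in P10 bESC. The 3 pairs of groups did not overlap, and the two-sided exact permutation test gave p = 0.333 for each, the smallest that 2 libraries against 2 allow.

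**Figure D2:**
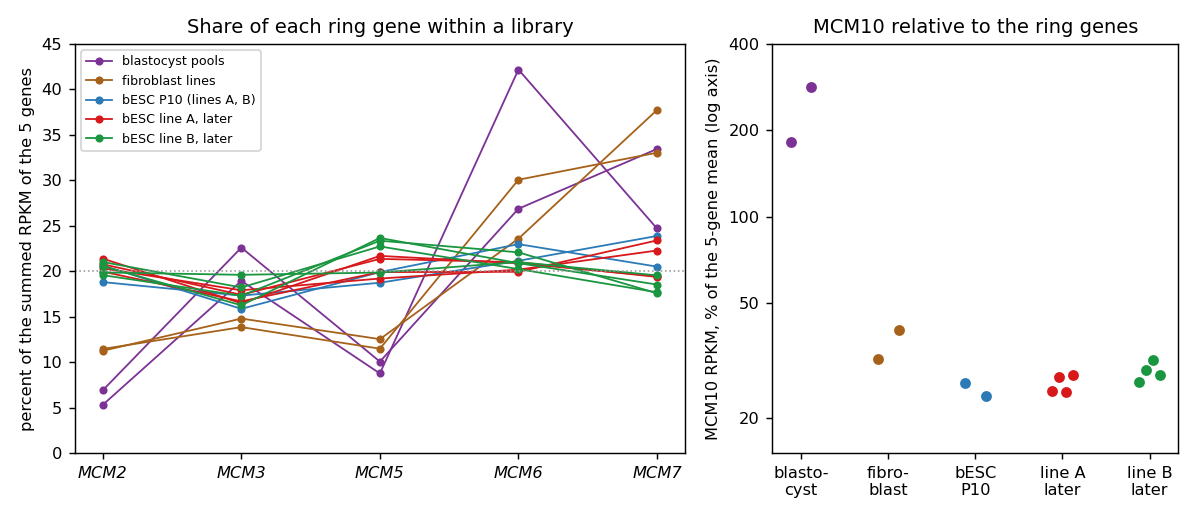
Left, the percent of the summed RPKM of MCM2, MCM3, MCM5, MCM6 and MCM7 that each gene takes in every library, with a line for a library and a dotted line at an equal share. Right, the RPKM of MCM10 as a percent of the mean of these genes (log axis), which is 182% and 283% in the blastocyst pools and 23.8% to 40.4% in all other libraries.

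The comparison of P10 bESC with fibroblasts sets the stem cells against cultured somatic cells. All 7 MCM genes were higher in bESC by limma at a Benjamini-Hochberg adjusted p under 0.05, where 35.4% of the 11761 genes tested were called higher and 21.9% lower. MCM2 rose by 2.79 ± 0.25 (SE) on the log2(RPKM + 1) scale with an adjusted p of 2.18e-04, and MCM5 by 2.68 ± 0.25 with an adjusted p of 2.21e-04. The other ring genes rose by 2.23 ± 0.29 (MCM3, adjusted p = 9.54e-04), 1.78 ± 0.27 (MCM6, adjusted p = 0.00176), 1.77 ± 0.27 (MCM4, adjusted p = 0.00178) and 1.40 ± 0.34 (MCM7, adjusted p = 0.0120). MCM10 rose by 1.46 ± 0.31 with an adjusted p of 0.00745. These are bulk samples, in which fewer replicating cells and less RNA per cell cannot be told apart.

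The median gene stood 0.23 higher in P10 bESC, and relative to it the MCM genes were higher by 1.17 (MCM7) to 2.55 (MCM2). All 7 were called higher under each of the 4 scalings, as 24.9% of all genes were. MCM7 had the least certain call: its change was 0.95 with an adjusted p of 0.0548 without line A at P10, and 1.34 with an adjusted p of 0.0523 without fibroblast line B.

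Against blastocysts, the embryonic stage from which bESC derive, the 6 ring genes were called higher in P10 bESC and MCM10 was not, where 73% of all genes were called higher and 7.33% lower. MCM2 rose by 4.30 ± 0.25 (SE) on the log2(RPKM + 1) scale with an adjusted p of 1.98e-05. MCM5 rose by 3.77 ± 0.25 and MCM4 by 3.20 ± 0.27, with adjusted p-values of 2.68e-05 and 6.34e-05. MCM3, MCM7 and MCM6 rose by 2.54 ± 0.29, 2.51 ± 0.34 and 2.29 ± 0.27, with adjusted p-values of 2.41e-04, 4.72e-04 and 2.68e-04. The median gene itself stood 1.43 higher, and the ring genes exceeded it by 0.86 (MCM6) to 2.88 (MCM2).

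MCM2, MCM3, MCM4 and MCM5 were called higher under all 4 scalings, as 30.4% of all genes were. The calls of MCM6 (0.53, adjusted p = 0.131) and MCM7 (0.75, adjusted p = 0.0864) were lost under median-of-ratios scaling, where the median gene stood at 0.18. MCM10 differed by -0.20 ± 0.31 with an adjusted p of 0.564 and a 95% interval of -0.95 to 0.54, which is 1.63 below the median gene. Under the 3 other scalings it was called lower in bESC, by -1.60 with quantile normalization (adjusted p = 0.00411), -1.95 with median-of-ratios scaling (adjusted p = 0.00150) and -1.51 after leaving out the 2 most abundant features (adjusted p = 0.00610). The MCM10 call therefore rests on the scaling. Its change lay below those of the ring genes under all 4. A factor for a whole library hardly alters that order, so only quantile normalization could have changed it.

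Between blastocysts and fibroblasts MCM10 was the only member called in the same direction under all 4 scalings, as 11% of all genes were called higher and 32.1% lower. It was higher in blastocysts by 1.66 ± 0.31 (SE, log2(RPKM + 1) scale, adjusted p = 0.00257), which is 2.82 above the median gene, and it was called under all 16 alternatives tried, at 1.46 to 3.14. With the values as deposited 11% of all genes were called higher in blastocysts and 63.4% lower. MCM2 was lower by -1.52 ± 0.25, MCM4 by -1.43 ± 0.27, MCM5 by -1.08 ± 0.25 and MCM7 by -1.12 ± 0.34, with adjusted p-values of 0.00149, 0.00260, 0.00619 and 0.0209. These 4 lay between -0.36 (MCM2) and 0.07 (MCM5) from the median gene, which was at -1.15, and none was called lower under the other 3 scalings. The MCM7 call was also lost without blastocyst pool B (-0.81, adjusted p = 0.119), fibroblast line A (-1.06, adjusted p = 0.0795) or fibroblast line B (-1.17, adjusted p = 0.0601). MCM3 (-0.31, adjusted p = 0.370) and MCM6 (-0.51, adjusted p = 0.133) were not called as deposited and were called higher in blastocysts under each of the other 3. All 3 comparisons share libraries, so their changes are not set against each other.

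**Figure D3:**
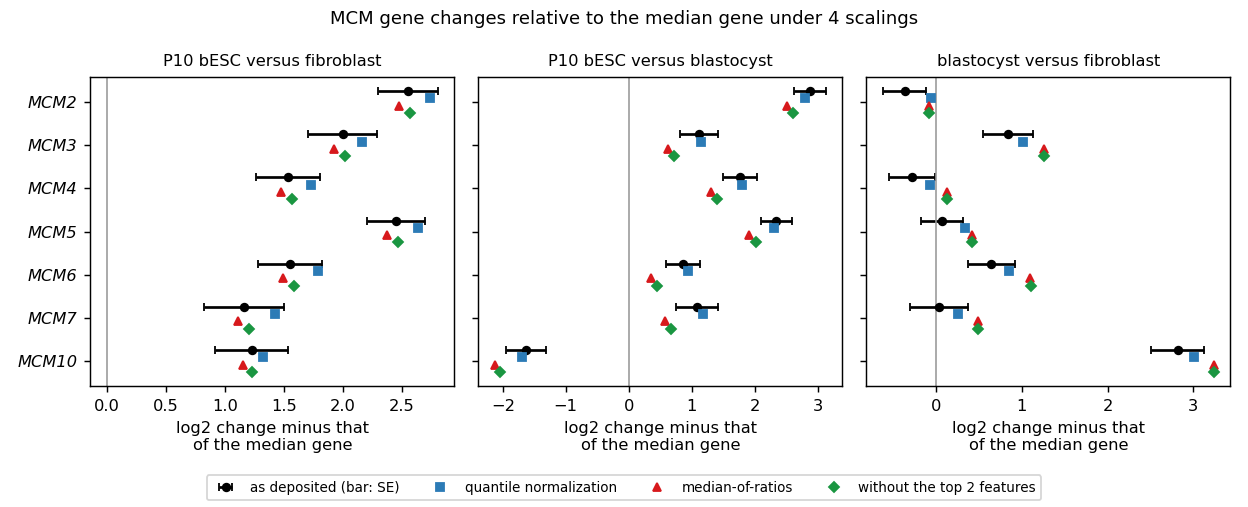
Change of each MCM gene minus the change of the median gene on the log2 scale, for 3 comparisons and 4 scalings of the libraries. Bars are standard errors of the fit to the values as deposited, and all points of the first panel lie above 0, while MCM10 lies below 0 in the second panel and above all ring genes in the third.

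The other genes of replication give the setting of the MCM values. Of the 7 origin licensing genes tested, 5 were called higher in P10 bESC than in fibroblasts and none lower, also under all 4 scalings: ORC1, ORC2, ORC3, CDC6 and CDT1. Beside these stand all genes, of which 35.4% were called higher as deposited and 24.9% under all 4 scalings. ORC1, an ATPase subunit of the origin recognition complex, had 1.93 and 2.09 RPKM in fibroblasts, 37.0 and 20.1 RPKM in P10 bESC and 29.9 and 38.2 RPKM in blastocysts. CDT1, which brings the MCM ring to the origin, had 2.81 and 2.41 RPKM in fibroblasts, 21.5 and 15.6 RPKM in P10 bESC and 1.74 and 0.776 RPKM in blastocysts. ORC1 thus had the order of MCM10, low in fibroblasts alone, and CDT1 that of MCM2, high in bESC alone. ORC1 rose by 3.24 ± 0.30 and CDT1 by 2.42 ± 0.28 from fibroblasts to P10 bESC (limma, SE, adjusted p = 2.34e-04 and 5.88e-04).

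All 9 helicase activation genes tested were called higher in P10 bESC than in fibroblasts, 8 of them under all 4 scalings, with GINS4 the exception. TICRR, which helps CDC45 join the ring, had 13.7 and 12.5 RPKM in P10 bESC against 1.42 and 1.78 in fibroblasts. GINS2 had 48.7 and 35.3 RPKM against 9.22 and 11.3. Of 23 replication fork genes 20 were called higher and none lower (17 under all 4 scalings), of 14 mitosis genes all 14 (14), and of 11 genes of histone and nucleotide supply 9 (9). The share of all genes called higher was 35.4% as deposited and 24.9% under all 4 scalings. NASP, a histone chaperone, had the highest change among the named genes, with 478 and 267 RPKM in P10 bESC against 21.2 and 20.7 in fibroblasts. Relative to the median gene, the median change was 1.55 for the MCM genes, 1.28 for licensing, 1.29 for activation, 1.60 for the fork, 1.42 for mitosis and 1.42 for supply. It was lower, at 0.69, for the E2F and RB list described below.

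The other genes with MCM in their names, whose products lie outside the replicative ring, were less uniform. Of 4 tested, MCM8 and MCMBP were called higher in P10 bESC than in fibroblasts and MCM9 and MCM3AP were not, and MCM8 alone held under all 4 scalings. For so few genes these counts are near the shares of all genes, 35.4% as deposited and 24.9% under all 4 scalings. MCM8, which acts in homologous recombination, had 8.89 and 6.08 RPKM in P10 bESC against 1.03 and 1.22 in fibroblasts. MCMBP, a chaperone of MCM subunits, had 34.3 and 26.8 RPKM against 18.2 and 20.0. The median of these 4 genes was 0.20 above the median gene.

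The E2F and RB list, whose products switch on the MCM genes at the entry to S phase or hold them off, had calls in both directions. Of 21 genes tested, 12 were called higher in P10 bESC than in fibroblasts and 4 lower, beside 35.4% and 21.9% of all genes. Under all 4 scalings these were 8 and 4, beside 24.9% and 16.9%, so the number of lower genes was near that of all genes. The 4 lower genes, named after their values were seen, were RB1 and RBL2, which repress E2F targets, and the D-type cyclins CCND1 and CCND3. RBL1, a relative of RB1, went the other way, with 13.3 and 11.9 RPKM in P10 bESC against 2.52 and 4.34 in fibroblasts (1.65 ± 0.25, adjusted p = 0.00168 by limma).

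Against blastocysts, in RPKM as deposited, the medians of the lists around the ring lay nearer to the median gene than that of the MCM genes. These medians were not taken under the other scalings, and they hide a split in the licensing list. Single licensing genes lay on both sides of the median gene, from -1.73 (ORC1) to 1.70 (CDT1). The median change relative to the median gene was 1.12 for the MCM genes, -0.26 for licensing, -0.16 for activation, 0.20 for the fork, -0.16 for E2F and RB, 0.01 for mitosis and 0.78 for histone and nucleotide supply. As deposited, 4 of 7 licensing, 8 of 9 activation, 21 of 23 fork, 16 of 21 E2F and RB, 11 of 14 mitosis and 10 of 11 supply genes were called higher in P10 bESC, beside 73% of all genes. Under all 4 scalings, beside 30.4% of all genes, these were 3 licensing genes (ORC2, ORC4 and CDT1), 2 activation genes (RECQL4 and DONSON) and 4 fork genes (POLD1, RFC2, RPA1 and TIMELESS). Of the other lists, 5 E2F and RB genes (E2F1, E2F2, E2F8, TFDP1 and CCND1) and 3 mitosis genes (TOP2A, BUB1 and BUB1B) held. The shares of the activation, fork, E2F and mitosis lists were thus below that of all genes, and that of the licensing list was above it. POLD1, the catalytic subunit of DNA polymerase delta, had 31.1 and 23.4 RPKM in P10 bESC against 0.549 and 0.691 in blastocysts. The ring genes with a row in both sets summed to 0.305 and 0.247 of the replication fork list in blastocysts, 0.379 and 0.367 in fibroblasts and 0.673 and 0.579 in P10 bESC. In the later libraries that ratio was 0.548 to 0.633.

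Some licensing and activation genes were also higher in blastocysts than in fibroblasts. ORC1 was higher in blastocysts by 3.53 ± 0.30 (SE, adjusted p = 7.34e-05 by limma). GINS1, a subunit of the GINS complex, had 43.3 and 44.5 RPKM in blastocysts against 10.9 and 11.3 in fibroblasts, a change of 1.89 ± 0.23 (adjusted p = 3.18e-04). Under all 4 scalings 3 of 7 licensing genes (ORC1, ORC3 and CDC6) and 4 of 9 activation genes (GINS1, GINS3, TICRR and TOPBP1) were called higher in blastocysts, beside 11% of all genes. None of either list was called lower under all 4, beside 32.1%. The other lists had fewer or mixed calls under all 4 scalings. Of 23 fork genes 2 were higher and 1 lower, of 11 supply genes 1 and 1, and of 21 E2F and RB genes 2 and 6. Of 14 mitosis genes 4 were higher and 0 lower.

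**Figure D4:**
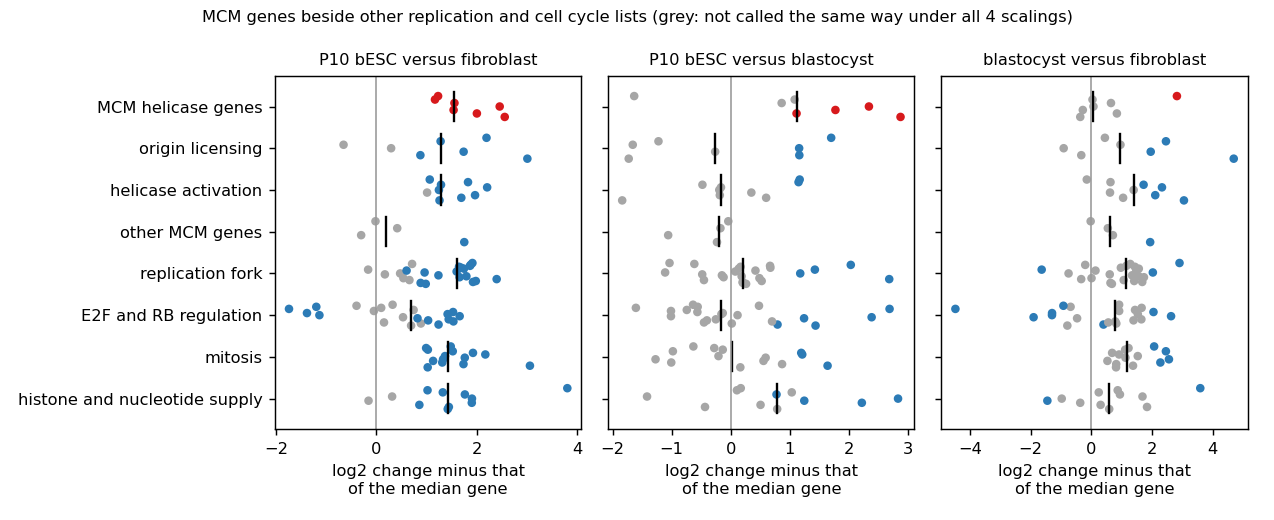
Change of each tested gene minus that of the median gene (log2 scale, values as deposited) in the MCM set and in 7 lists of replication and cell cycle genes, with a black line at each median. Coloured points were called in the same direction under all 4 scalings, and the median of the MCM genes is 1.55, 1.12 and 0.07 in the 3 panels.

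The lines were not alike at P10. Line A exceeded line B in all 7 MCM genes, from 1.47 times for MCM2 to 1.88 times for MCM7, while the median gene did not differ (-0.004 on the log2 scale). The excess was not particular to the MCM genes. The 23 replication fork genes summed to 844.2 RPKM for line A at P10, against 607.5 for line B. The 14 mitosis genes did not share it, with sums of 812.1 for line A and 853.1 for line B. There is 1 library of each, so these differences have no test. The summed fibroblast markers were lower in line A, at 144 RPKM against 268 in line B, and the summed pluripotency markers were 680.0 and 538.6. The part of these markers in the MCM difference was not tested.

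At later passages 5 of the 6 MCM genes followed had a coefficient of variation of 6.50% (MCM5) to 13.3% (MCM3) over the 8 libraries, and MCM7 had 22.3%. MCM2 had 105, 90.0, 110.4 and 88.9 RPKM in line A at P13, P23, P35 and P45, and 92.1, 83.6, 92.4 and 84.0 RPKM in line B at P12, P24, P35 and P46. MCM5 had 99.6, 91.3, 110.2 and 91.4 RPKM in line A, against 92.0, 99.7, 99.9 and 96.7 in line B, at the same passages. MCM5 thus varied least, and its lines overlapped. MCM3 had 92.9, 69.4, 92.3 and 74.6 RPKM in line A, against 90.9, 73.9, 80.1 and 66.5 in line B. MCM6 had 105, 87.9, 110.3 and 89.9 RPKM in line A, against 97.4, 94.3, 89.0 and 85.4 in line B.

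MCM7 varied most. It had 116, 81.9, 129 and 83.0 RPKM in line A, against 90.6, 75.1, 77.8 and 75.8 in line B. MCM10 had 25.7, 23.2, 27.2 and 24.2 RPKM in line A, against 24.6, 24.96, 27.9 and 23.1 in line B, with a coefficient of variation of 7.02%. Line A at P13 and at P35 gave the 2 highest values of MCM2, MCM3, MCM6 and MCM7, but not of MCM5 or MCM10. Relative to MCM5, MCM7 stood at 116% and 117% in these 2 libraries and at 75.3% to 98.4% in the other 6. They also stood apart over all genes, at 33.2 and 26.6 on the first principal component, which held 52.5% of the variance, against -19.4 to 7.53 for the rest. In the same 2 libraries the 6 trophectoderm markers, of which KRT8 and KRT18 alone reached 1 RPKM, summed to 235 and 340, against 536 to 788 in the other 6. The part of these differences in the MCM values was not tested.

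No MCM gene was called for a change with passage number in the 8 later libraries by limma. None of the 12785 genes tested was called (0%), with 494 genes at an unadjusted p under 0.05. Per 10 passages the fitted change was -0.03 for MCM2 (95% interval -0.11 to 0.05), -0.08 for MCM3 (-0.18 to 0.03), 0.01 for MCM5 (-0.07 to 0.08), -0.04 for MCM6 (-0.12 to 0.04), -0.06 for MCM7 (-0.20 to 0.08) and -0.01 for MCM10 (-0.09 to 0.07). The widest of these intervals, that of MCM7, holds changes of up to 0.20 per 10 passages. No MCM gene was called between the lines, where 2 of all genes (0.0156%) were called higher in line B and none lower. MCM7 had the largest difference, -0.33 in line B relative to line A (95% interval -0.67 to 0.01, adjusted p = 0.734 by limma). The slopes of the lines did not differ detectably either, with no call among all genes for the interaction of line and passage. The P10 values, shown as open points in the plot by passage, cannot be read directly against the later ones, because RPKM summed to 349527 and 365195 in the P10 libraries and to 475822 to 501373 in the later libraries. With each library rescaled so that the RPKM outside its 2 most abundant features sum to the same total, line A at P10 lay above all 8 later libraries in all 6 genes, as with 313 for MCM2 against 173 to 231. On that scale line B at P10 lay within the later range for the 5 ring genes, with 204 for MCM2, and just below it for MCM10 (47.2 against 47.6 to 59.9). In RPKM as deposited, line B at P10 was below all 8 later libraries in all 6 genes, so its place rests on the scale, and no test was run between the file sets.

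**Figure D5:**
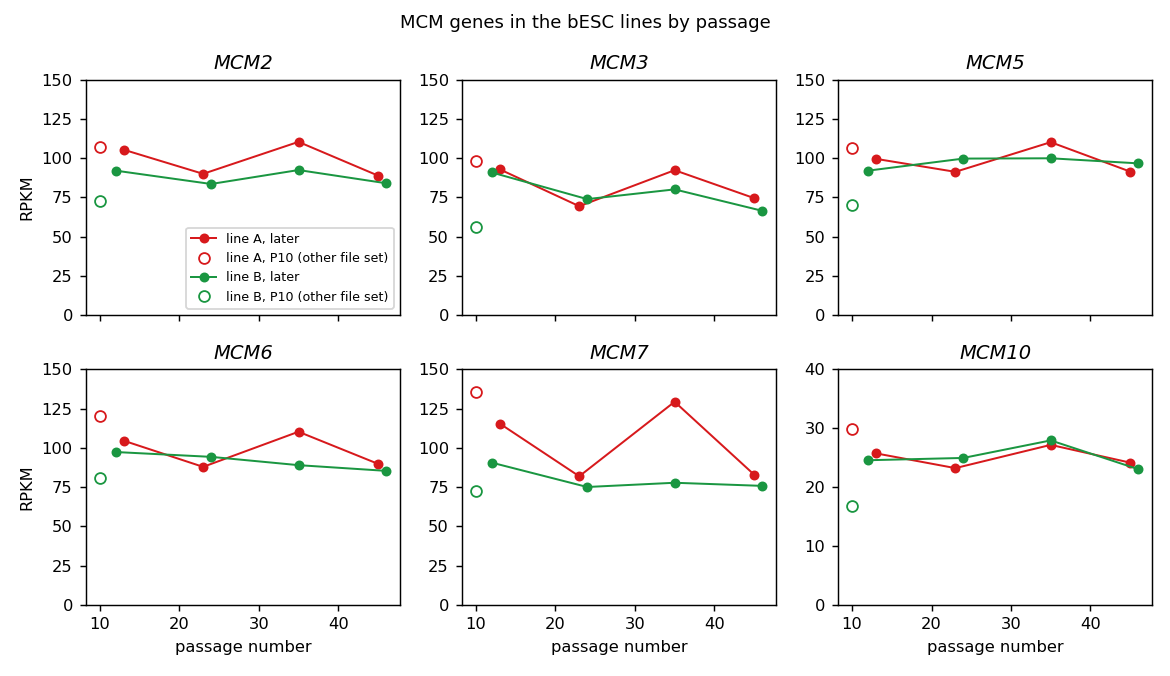
RPKM of 6 MCM genes against passage number, with filled points joined within a line for the later libraries and open points for the P10 libraries of the other file set. MCM7 in line A peaks at P13 and P35 (116 and 129 RPKM), while MCM5 stays between 91.3 and 110.2 RPKM in both lines.

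The members moved together to different degrees. Over the 6 control and P10 libraries Pearson's r between pairs of ring genes on the log2(RPKM + 1) scale was 0.917 to 0.997, whereas r of MCM10 with each ring gene was -0.00155 to 0.309. Over the 8 later libraries the ranges overlapped, with r of 0.454 to 0.962 between the 5 ring genes there and of 0.457 to 0.721 for MCM10 with each of them. MCM5 was the ring gene least like the others in these libraries, with r of 0.454 to 0.664. These points share libraries and scaling and are few, so the values are descriptions. Among 4821 genes with a symbol and at least 10 RPKM in a library of each set, those most like the mean of the members, by the lower of r over the 6 and over the 8 libraries, were SPATA2 (0.985 and 0.981), TOP3A (0.983 and 0.976), CDKN2AIP (0.974 and 0.968), NUP85 (0.968 and 0.974), CAMSAP1 (0.983 and 0.967), CHD8 (0.967 and 0.965), HCFC1 (0.987 and 0.964) and YLPM1 (0.963 and 0.966). None of the 8 belongs to the replication and cell cycle lists above. Those lists hold few of the 4821 genes, so their absence among 8 says little. The median of that lower r over the 4821 genes was 0.35. In the RefSeq gene table of assembly ARS-UCD2.0, MCM7 overlaps the microRNA genes MIR106B, MIR93 and MIR25, and MCM4 lies next to PRKDC.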

How the data were processed

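Per the labels' protocols, libraries were made from total RNA with a TruSeq RNA kit. The authors deposited RPKM per gene in 1 file per library. UMD3.1 and edgeR stand in the submitters' processing notes without a role. Aligner, read counter, annotation and the handling of mouse feeder reads: not given in the sources used here. Of 23231 features in the control and P10 files, 26 with unreadable names, 25 with a date as name and 21 with a blank value were left out. In 5 later files 26 names were restored from date numbers.

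Each gene was fitted on log2(RPKM + 1), a scale on which changes of low genes come out too small, with limma 3.58.1 in R 4.3.3 (moderated variances with a mean-variance trend, two-sided, Benjamini-Hochberg over all genes, call at 0.05). A gene entered a fit if 2 or more of its libraries reached 1 RPKM, which all members with a row did. The first fit held the 6 control and P10 libraries as 3 groups with 1 spread. The second held the 8 later libraries with line and passage number. The other scalings were quantile normalization, median-of-ratios scaling and rescaling without the 2 most abundant features of each library. Tables and plots were made with Python 3.11.15, pandas 2.3.3, numpy 2.4.6 and matplotlib 3.10.9, and the fits were tested on simulated data. The letters A and B of different cell types were not treated as a shared source in the main fit. Across genes, the differences of A from B correlated at 0.187, -0.0795 and -0.0990 between the groups, which cannot show whether a source was shared.

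The members and the lists were chosen with earlier results of these data known. Named from each list were up to 3 called genes with the smallest adjusted p, of which the text gives a part, and the 8 genes most like the members. Genes of a count of 5 or fewer outside that rule were named after their values were seen. RefSeq symbols matched 13608 names of the control and P10 files and 14547 of the later files.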

Additional observations from a re-analysis of the deposited data

How the results depend on the processing

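Of the alternatives for single members, 109 kept the call against fibroblasts and 2 lost it, and against blastocysts 104 kept it, 2 lost it, 3 gained it and 2 turned the sign. Between blastocysts and fibroblasts 89 kept it, 8 lost it and 14 turned the sign, and MCM7 kept its call in 9 of 16, losing it also with no filter (-1.12, adjusted p = 0.0506 by limma) and without blastocyst pool B, fibroblast line A or fibroblast line B. Calls over all genes in P10 bESC against fibroblasts numbered 6736, and 4345 to 6314 without 1 library, the fewest without line A at P10. Blastocysts against fibroblasts had 5 members called, 1 higher and 4 lower, beside 11% and 63.4% of all genes. Under quantile normalization, median-of-ratios scaling and scaling without the 2 most abundant features 3 were called, all higher. These were MCM3, MCM6 and MCM10, of which only MCM10 was also called as deposited. Changes there turned to 0.99, 1.15 and 1.16 for MCM3, 0.30, 0.31 and 0.32 for MCM5, 0.81, 0.99 and 1.00 for MCM6 and 0.22, 0.38 and 0.39 for MCM7 in that order, and to 0.020 and 0.027 for MCM4 under the last 2. MCM10 against blastocysts was -0.61 to 0.20 without 1 library. With the letter as a replicate block, 7, 6 and 5 members were called in the 3 comparisons, as without it, and 6570, 9420 and 8689 genes in all.

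Leaving out 1 later library gave slopes of -0.010 to 0.034 for MCM5 and -0.016 to 0.023 for MCM10, with 0 to 2 genes called in all, the 2 without line A at P23. MCM10 had a slope of 0.0053 under quantile normalization and 0.00039 without line A at P13 and P35. The line difference was -0.17 to 0.0028 for MCM3, -0.062 to 0.046 for MCM5 and -0.051 to 0.053 for MCM10 without 1 library. MCM5 was 0.0016 with quantile and 0.021 with median-of-ratios scaling, MCM10 -0.16 with the P10 libraries and a P10 term, and without line A at P13 and P35 MCM3, MCM5 and MCM6 were 0.072, 0.093 and 0.022. Genes called between lines, 2 as reported, were 5 and 4 at pseudocounts of 0.1 and 0.5, 0 with no filter, 1 under quantile normalization, median-of-ratios scaling or shared names, 4 without the top 2 features, 5 with passage stage as a replicate block, 0 without line A at P13 and P35 and 0 to 5 without 1 library. No member was called in any of these. Promoter and protein motifs were not run. Precision is limited by 2 libraries a group and by unknown depth.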
